A study of Mus musculus with 10 samples.

Results

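The genes described here encode the nuclear-encoded subunits of respiratory complexes II, III, IV and V, measured in gastrocnemius muscle of a mouse model of chronic obstructive pulmonary disease (COPD). They were taken by symbol: Sdha, Sdhb, Sdhc, Sdhd and Cyc1, and every gene whose symbol begins with Uqcr, with Atp5, or with Cox followed by 4, 5, 6, 7 or 8. The rule took 46 of the 18025 genes in the table: 4 of complex II, 9 of complex III, 16 of complex IV and 17 of complex V. Cox7a2l, which the rule places with complex IV, encodes a factor that joins complexes III and IV into supercomplexes and is not a canonical subunit. A filter on low counts kept 45 of the 46 among 12697 genes tested. Cox6b2, the testis form of a complex IV subunit, was left out, at 0.998 ± 0.371 TPM (a level per transcript length, scaled to the library) in COPD and 1.398 ± 0.497 TPM in control (SD, n = 5 each).

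Messenger RNA was sequenced from 5 COPD and 5 control samples of C57BL/6 mice, all listed as wild type and 8 weeks old. The COPD of the model is induced by cigarette smoke, per the title of the series; the labels give no dose, duration or sex. Nothing in them states that the samples are separate animals, and the p-values cover sample-to-sample spread, which may be technical. Library totals ran from 14085854 to 17251034 expected counts, and the 46 genes took 1.96 to 2.53% of them in COPD and 1.97 to 2.58% in control. In bulk muscle, fewer cells of a type and less RNA per cell cannot be told apart. Y-linked transcripts were present in COPD replicates 2 and 3 and in all 5 controls, and nearly absent from COPD replicates 1, 4 and 5. All 10 listed defining markers of skeletal muscle passed the filter.

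Oxidative phosphorylation burns reducing power from food to make ATP on the inner mitochondrial membrane. Complex II (succinate dehydrogenase) passes electrons from succinate to ubiquinone, complex III passes them from ubiquinol to cytochrome c, and complex IV (cytochrome c oxidase) hands them to oxygen. Complexes III and IV pump protons, and complex V (ATP synthase) lets the protons back through a rotor in the membrane to drive ATP synthesis. Several small subunits of complex IV come as tissue forms encoded by separate genes, with Cox6a2, Cox7a1 and Cox8b as the forms of heart and skeletal muscle in the mouse and Cox6a1, Cox7a2 and Cox8a as the forms found widely. Fast-twitch gastrocnemius relies largely on glycolysis, and its oxidative fibres hold most of its mitochondria. Of the subunits that mitochondrial DNA encodes, 6 of complexes III to V were sought by symbol and 0 were in the table. They were therefore not analysed here.

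Promoters are shown for tissue-form pairs of complex IV, for a pair of genes that encode the same rotor protein of complex V, and for Uqcrh and Atp5k, which had some of the smallest p-values. The RefSeq table of GRCm38.p6 matched 35 of the 46 genes. Each window holds the 250 bases before the annotated start, read 5′ to 3′ on the strand of the gene. Capitals mark matches, on either strand, to any of 8 motifs: NRF1 (GCGCA, any base, then GCGC), the ETS motif bound by GABP (CCGGAAG), YY1 (AAGATGGC), the ERR half-site (AAGGTCA), the GC box (GGGCGG), an E-box (CAGCTG), the TATA box (TATAAA) and CCAAT. No 2 matches overlap in these windows.

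Cox7a1 promoter, chr7:30183921-30184170, plus strand: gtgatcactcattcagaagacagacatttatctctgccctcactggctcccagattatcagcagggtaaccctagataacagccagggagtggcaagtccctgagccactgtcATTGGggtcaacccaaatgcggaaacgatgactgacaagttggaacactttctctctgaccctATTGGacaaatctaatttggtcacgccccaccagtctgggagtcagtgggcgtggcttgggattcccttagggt
Cox7a2 promoter, chr9:79759854-79760103, minus strand: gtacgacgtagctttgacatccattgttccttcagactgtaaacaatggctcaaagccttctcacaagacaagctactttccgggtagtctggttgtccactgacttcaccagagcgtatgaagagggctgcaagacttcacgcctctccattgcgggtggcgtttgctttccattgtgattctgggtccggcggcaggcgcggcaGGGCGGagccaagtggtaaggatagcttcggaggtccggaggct
Cox8b promoter, chr7:140900447-140900696, minus strand: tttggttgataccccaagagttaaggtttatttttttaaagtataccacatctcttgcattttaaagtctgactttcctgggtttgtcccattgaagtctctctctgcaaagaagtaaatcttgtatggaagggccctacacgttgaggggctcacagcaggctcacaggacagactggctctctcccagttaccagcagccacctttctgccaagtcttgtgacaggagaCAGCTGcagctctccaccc
Cox8a promoter, chr19:7217617-7217866, minus strand: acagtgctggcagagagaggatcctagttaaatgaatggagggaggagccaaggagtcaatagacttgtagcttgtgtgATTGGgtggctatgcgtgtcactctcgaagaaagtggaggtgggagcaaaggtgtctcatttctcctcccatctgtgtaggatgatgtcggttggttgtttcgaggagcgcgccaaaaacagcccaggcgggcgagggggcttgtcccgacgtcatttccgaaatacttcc
Atp5g3 promoter, chr2:73911327-73911576, minus strand: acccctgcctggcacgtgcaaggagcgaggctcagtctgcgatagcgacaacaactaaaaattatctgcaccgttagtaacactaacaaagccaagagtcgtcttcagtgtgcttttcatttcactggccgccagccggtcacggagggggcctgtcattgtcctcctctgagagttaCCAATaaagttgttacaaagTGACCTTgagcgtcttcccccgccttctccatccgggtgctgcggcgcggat
Atp5g2 promoter, chr15:102671048-102671297, minus strand: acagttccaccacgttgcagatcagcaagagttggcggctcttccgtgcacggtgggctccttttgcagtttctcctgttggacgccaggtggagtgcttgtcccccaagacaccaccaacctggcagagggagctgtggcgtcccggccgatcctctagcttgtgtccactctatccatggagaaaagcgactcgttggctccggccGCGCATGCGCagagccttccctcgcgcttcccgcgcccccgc
Atp5k promoter, chr5:108434400-108434649, minus strand: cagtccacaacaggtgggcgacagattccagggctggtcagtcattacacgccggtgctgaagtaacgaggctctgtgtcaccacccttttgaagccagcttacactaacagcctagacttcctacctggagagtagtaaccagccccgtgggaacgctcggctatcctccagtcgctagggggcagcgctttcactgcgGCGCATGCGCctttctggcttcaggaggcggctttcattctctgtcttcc
Uqcrh promoter, chr4:116075071-116075320, minus strand: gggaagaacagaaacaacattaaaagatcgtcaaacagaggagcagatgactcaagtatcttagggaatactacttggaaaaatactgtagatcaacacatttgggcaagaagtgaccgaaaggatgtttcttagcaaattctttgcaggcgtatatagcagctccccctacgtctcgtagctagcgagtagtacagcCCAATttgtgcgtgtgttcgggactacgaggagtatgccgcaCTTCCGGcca

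NRF1 and GABP are transcription factors known for binding promoters of respiratory genes. The NRF1 motif was found in 7 of the 35 matched promoters (20.0%), among them those of Atp5k and Atp5g2, against 4.23% of the 27025 genes in the table. The ETS motif was found in 9 (25.7%), Uqcrh among them, against 7.83% of all genes. CCAAT was found in 19 (54.3%), including both matches in Cox7a1 and the matches in Cox8a, Atp5g3 and Uqcrh, against 37.5% of all genes. The GC box, which Cox7a2 holds, was in 11 (31.4%) against 35.4%, the E-box of Cox8b in 2 (5.71%) against 14.7%, and the TATA box in 2 (5.71%) against 14.3%. The ERR half-site, which Atp5g3 holds, was in 2 (5.71%) against 4.70%, and YY1 in 1 (2.86%) against 1.83%. The 27025 genes were not limited to those tested here. For 30 of the 38 windows of the matched genes, the bases after the annotated start were found in a transcript of the gene. The windows may thus lie beside the start used in muscle. These matches describe letters in a window and say nothing of binding in these samples.

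COPD was compared with control to ask whether the subunit transcripts differ in muscle of the disease model. None of the 45 tested genes passed an adjusted p of 0.05 in the quasi-likelihood test of edgeR, where 0.0551% of all genes were called higher and 0.00788% lower. The smallest adjusted p was 0.171. At an unadjusted p under 0.05, 22 of the 45 were listed, all on the higher side, against 7.94% of all genes listed as higher and 6.64% as lower. The count was 20 with upper-quartile scaling, 25 with the size factors of DESeq2, 29 by DESeq2 and 32 by voom with sample weights. After adjustment, DESeq2 called 266 of all genes higher and voom with sample weights 86, against 7 by edgeR. The share of all genes at an unadjusted p was not computed in these settings. Their counts are therefore not read as more or less than the 22. The count among the 45 genes was 1 with library size alone, where 3.17% of all genes were listed as higher. It was 0 by limma on log2(TPM + 1), which changes both the unit and the test (2.14% of all genes), and 15 with a term for Y-linked transcripts in the model (9.04%). Leaving out COPD replicate 1 or control replicate 5 gave 12 each (7.46% and 6.43% of all genes). DESeq2 called 2 of the 45 higher (Uqcrh and Cox5b) and 0 lower, against 1.48% and 0.859% of all genes, and voom with sample weights called 0, against 0.677% and 0.402%. A log2 fold change (COPD over control) above 0 was found for 41 of 45, against 48% of all genes. The median was 0.30, against -0.01 over all genes tested. The number above 0 was 37 with scaling by library size alone, where 24.7% of all genes lay above 0, and 33 in TPM, where 18.7% did. In those settings the median of all genes shifted to -0.17 and -0.18. Relative to that shift the median of the 45 genes was 0.31 and 0.27, against 0.31 with TMM scaling (a trimmed mean that sets most genes to no change). In TPM with no filter on low values it was 0.19.

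The libraries did not divide by label. The mean log2 CPM (counts scaled to the library total and the TMM factor) of the 45 genes, set relative to the control mean, was 0.45, 0.28, 0.29 and 0.37 in COPD replicates 1 to 4 and -0.04 in COPD replicate 5. In control replicates 1 to 5 it was -0.01, -0.12, 0.18, 0.14 and -0.18. COPD replicate 5 thus lay inside the control range, while the other 4 COPD libraries lay above every control. It was the lowest COPD library for 3 of 4 genes of complex II, 9 of 9 of complex III, 11 of 16 of complex IV and 14 of 17 of complex V. For 0 of the 46 genes did all 5 COPD libraries exceed all 5 controls, where 1.28% of all tested genes did so. COPD replicates 1 to 4 exceeded all controls for 25 of the 46 genes, against 4.8% of all tested genes. COPD replicate 5 was set apart by its values of these same genes. Results without it, here and below, therefore describe the libraries and are no separate support for a difference. Without COPD replicate 5, edgeR called 4 of the 45 genes higher and 0 lower, against 2.06% and 1.15% of all genes, and the median log2 fold change was 0.37. Those 4 were Cox5a, Cox7a1, Atp5g3 and Atp5j, and 32 of the 45 then had an unadjusted p under 0.05, against 10.7% of all genes listed as higher. Leaving out any of the other 9 libraries gave 0 called genes among the 45.

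**Figure D1:**
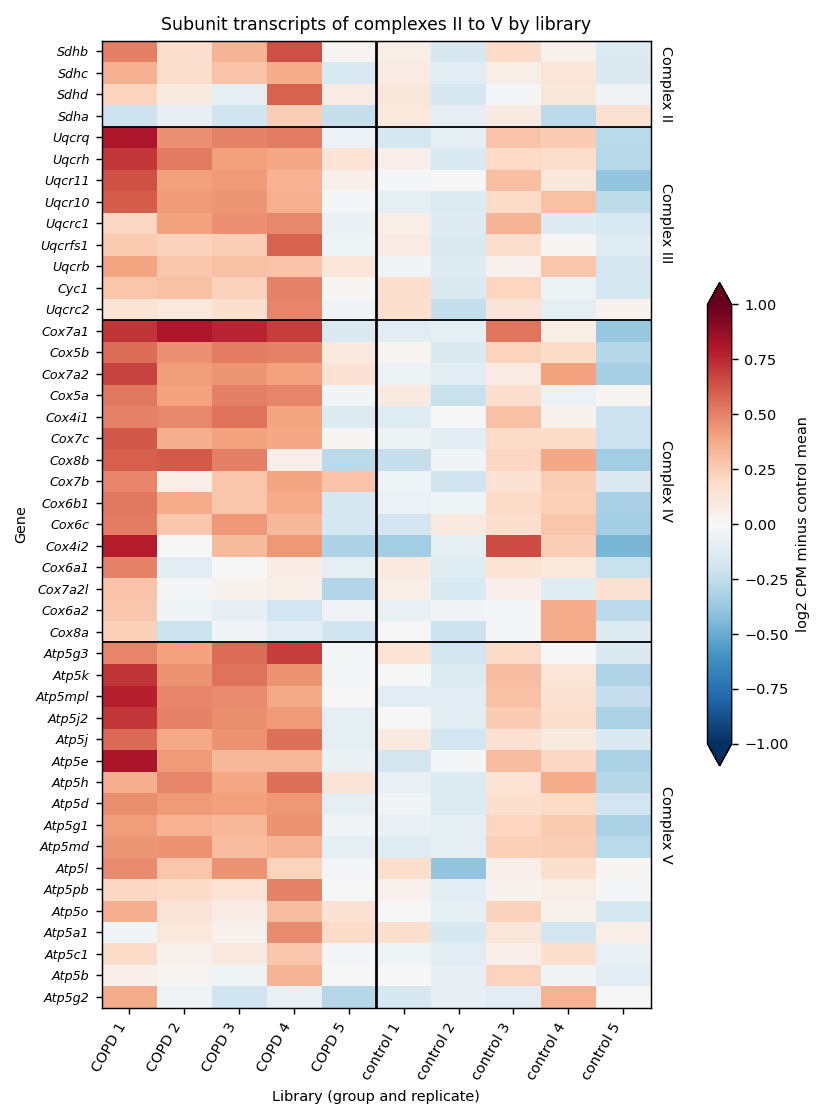
Each cell gives the log2 CPM of a tested gene (row, grouped by complex and ordered by fold change) in a library (column, COPD replicates left of controls) minus the mean of the 5 controls, with colours saturating at 1 in either direction. COPD replicates 1 to 4 are mostly red, and COPD replicate 5 resembles the controls. Sdha, Cox8a, Cox6a2 and Atp5g2 are among the genes that lack the shared shift, as are Cox7a2l, Cox6a1 and Atp5b.

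With only the libraries that have Y-linked transcripts (COPD replicates 2 and 3 and all controls), the median log2 fold change was 0.34 and 0 of 45 genes passed edgeR's adjusted threshold, where 2.55% of all genes were called higher and 1.15% lower. Before adjustment, 20 of the 45 were listed as higher with p under 0.05, against 10.8% of all genes. The median of complex II was 0.12 in these libraries. The libraries without Y-linked transcripts are all COPD, so no difference can be given among them.

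The 4 subunits of complex II had a median log2 fold change of 0.20, and the smallest adjusted p was 0.259 by edgeR. In TPM 2 of the 4 were positive and the median was -0.01, or 0.17 relative to the shift of all genes. Without COPD replicate 4 the median was 0.12 with TMM scaling. Sdhb carries the iron-sulfur centres of the complex. It was at 482, 382, 429.8, 531 and 346 CPM in COPD replicates 1 to 5, against 355, 304, 388, 352 and 309.9 CPM in control replicates 1 to 5. The groups overlapped through COPD replicates 2 and 5, which lay below control replicate 3, and the log2 fold change was 0.35 ± 0.13 (SE, adjusted p = 0.259 by edgeR). Sdhc, a membrane anchor, was at 366, 324, 348, 369 and 258 CPM in COPD, against 303, 264, 298, 312 and 259 CPM in control. COPD replicates 1 to 4 lay above all controls and COPD replicate 5 below them (log2 fold change 0.21 ± 0.12, adjusted p = 0.430 by edgeR). Sdhd, the other anchor, had a log2 fold change of 0.19 ± 0.13 that came largely from 191 CPM in COPD replicate 4, against 114 to 138 CPM in control and 119 to 148 CPM in the other COPD libraries. Sdha, the flavoprotein that holds the succinate site, had the lowest log2 fold change of the 45 genes (-0.09 ± 0.12) and is singled out for that value. It ranged from 431 to 600.5 CPM in COPD and from 423 to 562 CPM in control. Per transcript length, Sdhb was the most abundant of the 4 (641 ± 117 TPM in COPD and 579 ± 35.5 TPM in control) and Sdhd the least (179 ± 38.8 and 181 ± 19.0 TPM; SD, n = 5 each).

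All 9 genes of complex III had a log2 fold change above 0 with TMM scaling, from 0.17 to 0.45 with a median of 0.30. In TPM 8 of the 9 were positive and the median was 0.09. At an unadjusted p under 0.05, 6 of the 9 were listed as higher (7.94% of all genes), and COPD replicates 1 to 4 exceeded all controls for 6 (4.8% of all genes). Uqcrh encodes the acidic hinge protein that helps cytochrome c dock. Its levels were 313, 274, 254, 250.3 and 211 CPM in COPD replicates 1 to 5, against 198, 172, 220.2, 217 and 158 CPM in control replicates 1 to 5. Here only COPD replicate 5 overlapped the controls. The log2 fold change was 0.43 ± 0.13, and the adjusted p of 0.171 by edgeR was the smallest of all 45 genes. With DESeq2 the adjusted p was 0.0477, and over all alternative settings it ran from 0.0477 to 0.341.

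Uqcrq, a small subunit beside the cytochrome b core, was at 591, 463, 475, 479 and 323 CPM in COPD, against 298, 317, 410.2, 402 and 279 CPM in control (log2 fold change 0.45 ± 0.17, adjusted p = 0.244 by edgeR). Uqcr11, the gene of complex III with the highest level per length, was at 489, 419, 422, 401 and 326 CPM in COPD, against 309.8, 315, 388, 341 and 239 CPM in control. For both genes COPD replicates 1 to 4 lay above every control and COPD replicate 5 among them. Uqcr11 averaged 1607 ± 163 TPM in COPD and 1432 ± 175 TPM in control, and its log2 fold change was 0.37 ± 0.14 (adjusted p = 0.267 by edgeR). Among the catalytic and core subunits, Cyc1, the cytochrome that reduces cytochrome c, had a log2 fold change of 0.26 ± 0.12, and Uqcrfs1, the Rieske iron-sulfur protein, one of 0.27 ± 0.12. The core proteins Uqcrc1 and Uqcrc2 had log2 fold changes of 0.30 ± 0.14 and 0.17 ± 0.12. Levels per length within the complex ran from 294 TPM for Uqcrc2 to 1520 TPM for Uqcr11, as means over all 10 libraries.

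**Figure D2:**
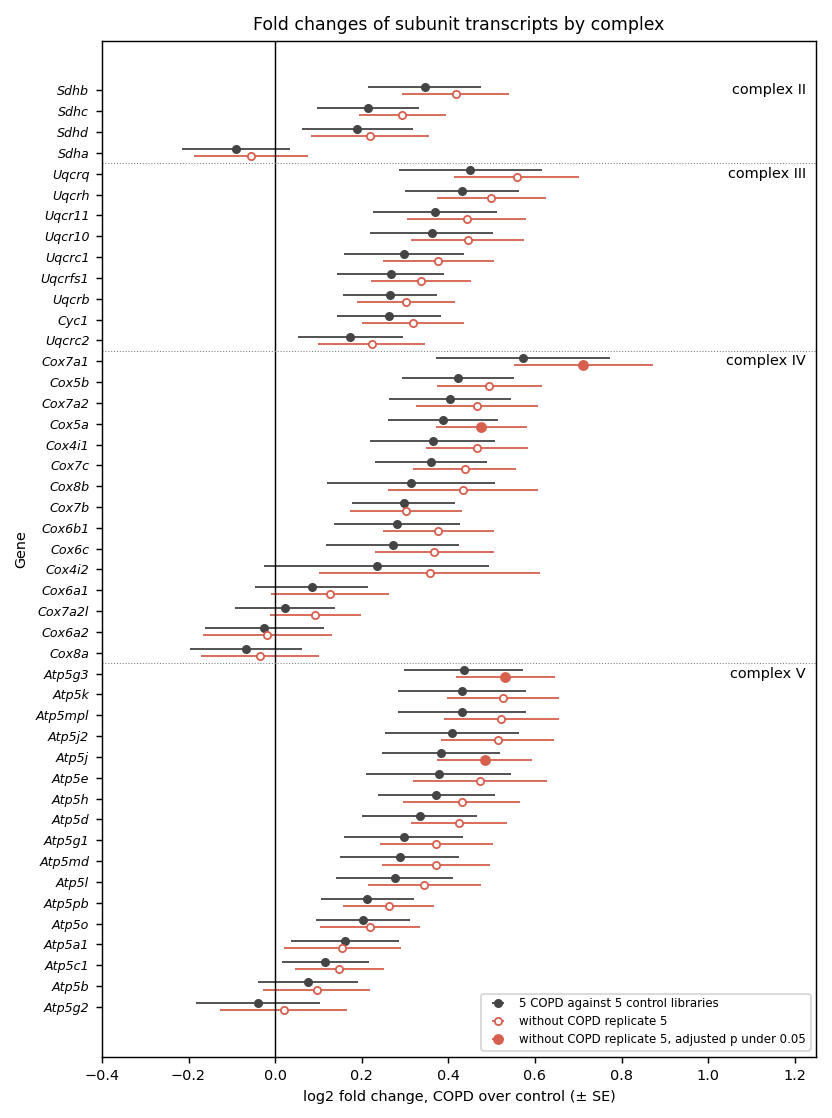
Log2 fold changes (COPD over control, ± SE) of the 45 tested genes by complex, over all 10 libraries (grey) and without COPD replicate 5 (red; filled where the adjusted p was under 0.05). All estimates over 10 libraries but those of Sdha, Cox6a2, Cox8a and Atp5g2 lie above 0, and Cox5a, Cox7a1, Atp5g3 and Atp5j are filled.

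In complex IV, log2 fold changes ran from -0.07 to 0.57 around a median of 0.30, and 13 of the 15 tested genes were positive. In TPM 11 were positive and the median was 0.09. The complex holds both the largest value of the 45 genes, that of Cox7a1, and members near 0. At an unadjusted p under 0.05, 7 of the 15 were listed as higher (7.94% of all genes). Cox5b, which binds zinc on the matrix side of the enzyme, was at 590.5, 549, 572, 565 and 429 CPM in COPD replicates 1 to 5, against 409, 362, 467, 454 and 328 CPM in control replicates 1 to 5. COPD replicate 5 was again the sole COPD library within the control range (log2 fold change 0.42 ± 0.13, adjusted p = 0.177 by edgeR). DESeq2 gave Cox5b an adjusted p of 0.0440, the lowest of a range over settings that reached 0.345.

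Cox5a, its partner in the enzyme's matrix domain, was at 608, 557, 597, 589 and 413 CPM in COPD, against 448, 359.9, 473, 405 and 427 CPM in control (log2 fold change 0.39 ± 0.13, adjusted p = 0.201 by edgeR). Without COPD replicate 5 the log2 fold change was 0.48 ± 0.11 and the adjusted p 0.0380, the lowest of a range over settings that reached 0.397. The 4 higher COPD libraries of Cox5a spanned 557 to 608 CPM, well clear of the highest control. Other subunits found in all tissues had similar values: 0.36 ± 0.13 for Cox7c, 0.30 ± 0.12 for Cox7b, 0.28 ± 0.15 for Cox6b1 and 0.27 ± 0.15 for Cox6c. Cox7b was at 408, 303, 352, 381 and 353 CPM in COPD, against 281, 253, 322, 344 and 262 CPM in control. It differed from most genes in that COPD replicate 5 lay above all controls while COPD replicate 2 did not. Cox6b1 was at 525, 469, 441, 469.8 and 324 CPM in COPD, against 349, 352, 416, 428 and 289.9 CPM in control, so that COPD replicates 1 to 4 exceeded the highest control by a small margin.

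The muscle forms dominated their widely expressed partners in every library, and most of all for Cox6a. Cox6a2, the muscle form of a subunit that adjusts enzyme activity, was the most abundant of the 46 genes per length, at 5797 ± 507 TPM in COPD and 6825 ± 1228 TPM in control (SD, n = 5 each). Its partner Cox6a1 stood at 94.2 ± 14.5 TPM in COPD and 103 ± 8.91 TPM in control. The ratio of Cox6a2 to Cox6a1 in TPM ran from 54.9 to 69.0 in COPD and from 58.4 to 79.4 in control. Neither gene shared the shift of its complex. Cox6a2 was at 2828, 2279, 2221, 2056 and 2295 CPM in COPD, against 2229.8, 2308, 2336, 3043 and 1965 CPM in control, a log2 fold change of -0.02 ± 0.14 (adjusted p = 0.952 by edgeR), and its sign turned when COPD replicate 3, COPD replicate 4 or control replicate 4 was left out. Cox6a1 was at 42.8, 28.0, 30.2, 31.8 and 28.5 CPM in COPD, against 32.5, 27.9, 33.3, 32.6 and 26.0 CPM in control. COPD replicate 1 alone lifted its mean (log2 fold change 0.08 ± 0.13, and -0.04 without that library).

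Cox7a1, a muscle form of a subunit at the interface of complex IV dimers, had the largest log2 fold change of the 45 genes, 0.57 ± 0.20 (adjusted p = 0.229 by edgeR). Its levels were 334, 356, 344, 327 and 184 CPM in COPD replicates 1 to 5, against 187, 189.8, 294, 211 and 157 CPM in control replicates 1 to 5. COPD replicate 5 lay below 4 of the 5 controls, and control replicate 3 stood between the groups. Without COPD replicate 5 the log2 fold change was 0.71 ± 0.16 and the adjusted p 0.0399, at the low end of a range over settings of 0.0399 to 0.393. Cox7a2, the widely expressed form, was at 200.1, 167, 170.1, 166 and 139 CPM in COPD, against 121, 117, 133, 165.7 and 99.8 CPM in control (log2 fold change 0.40 ± 0.14, adjusted p = 0.230 by edgeR). Control replicate 4 came close to COPD replicate 4, and COPD replicate 5 lay below it. Both forms of Cox7a therefore had positive values, and their log2 ratio (expected counts of Cox7a1 over Cox7a2) averaged 0.85 ± 0.28 in COPD and 0.69 ± 0.29 in control (SD, n = 5 each, with an exact permutation test, two-sided, p = 0.397, or 0.505 after adjustment over 6 ratios).

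Cox8b and Cox8a, the muscle and widely expressed forms of the smallest subunit, had estimates of opposite sign. Cox8b was at 745, 750.4, 697, 508 and 406 CPM in COPD, against 419, 483, 568, 643 and 387 CPM in control (log2 fold change 0.31 ± 0.19, adjusted p = 0.492 by edgeR). Cox8a was at 60.8, 44.5, 50.6, 47.9 and 45.1 CPM in COPD, against 51.8, 44.4, 50.9, 66.7 and 47.0 CPM in control (log2 fold change -0.07 ± 0.13, adjusted p = 0.855 by edgeR). COPD replicates 1 to 3 held the highest Cox8b levels, while the highest Cox8a level was in control replicate 4. Per length, Cox8b exceeded Cox8a by 14.2 to 26.7 times in COPD and 12.8 to 17.6 times in control. Their log2 count ratio was 3.61, 4.08, 3.78, 3.41 and 3.17 in COPD replicates 1 to 5, against 3.02, 3.44, 3.48, 3.27 and 3.04 in control replicates 1 to 5. COPD replicates 1, 2 and 3 lay above all controls, and the difference of 0.36 did not pass (exact permutation test, two-sided, p = 0.0794, or 0.238 after adjustment over 6 ratios).

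Cox4i1, the main form of the largest nuclear-encoded subunit, was at 762, 755, 788, 711 and 494 CPM in COPD, against 499, 541, 665, 556 and 467 CPM in control (log2 fold change 0.36 ± 0.14, adjusted p = 0.274 by edgeR). COPD replicates 1 to 4 lay above all controls and COPD replicate 5 second from the bottom of all 10 libraries. Cox4i2, a form known from lung and from low oxygen, was near the bottom of the tested range, at 4.58, 2.66, 3.31, 3.60 and 2.14 CPM in COPD, against 2.09, 2.49, 4.19, 3.16 and 1.93 CPM in control. COPD replicate 1 lay above every control and the other 4 COPD libraries among them (log2 fold change 0.23 ± 0.26). That value was 0.08 without COPD replicate 1 and 0.43 without control replicate 3. The log2 ratio of Cox4i2 to Cox4i1 averaged -7.76 ± 0.29 in COPD and -7.65 ± 0.27 in control (exact permutation test, two-sided, p = 0.556, or 0.556 after adjustment over 6 ratios). Cox7a2l, the supercomplex factor, had a log2 fold change of 0.02 ± 0.11.

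**Figure D3:**
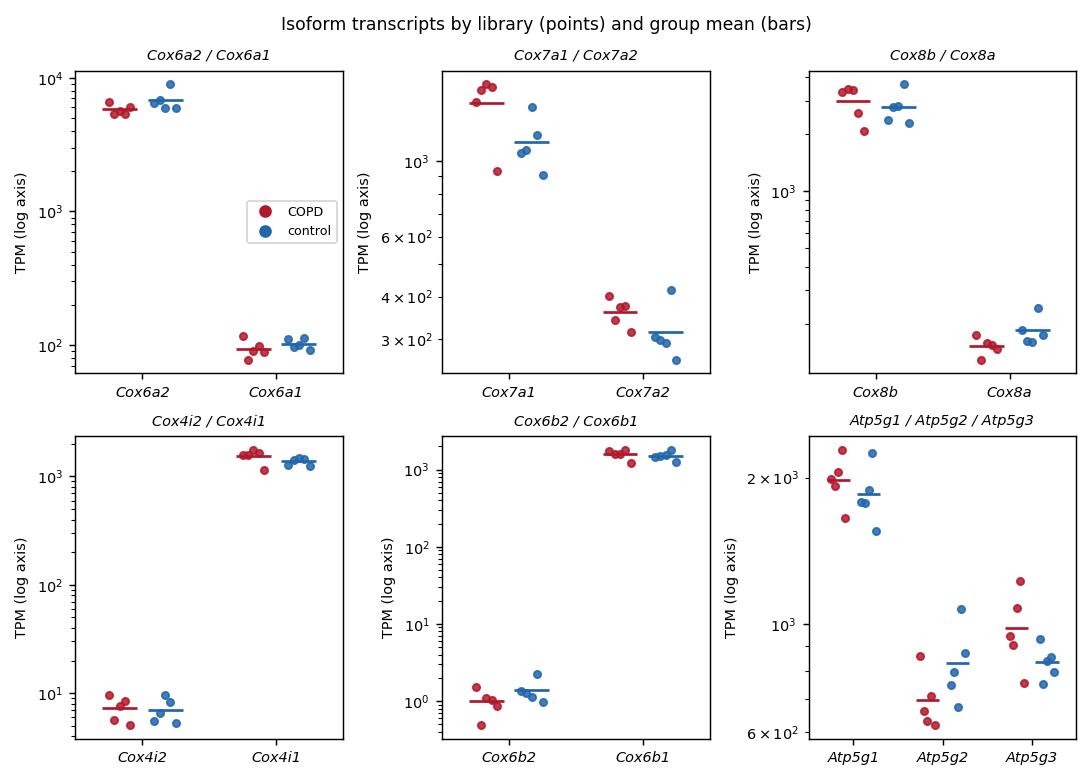
TPM (log axis) of tissue and gene forms of the same subunit in each library, COPD in red at the left of each pair and control in blue, with bars at the group means. Cox6a2 exceeds Cox6a1, Cox7a1 exceeds Cox7a2 and Cox8b exceeds Cox8a in every library, and Cox4i2 and Cox6b2 stay far below their partners.

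In complex V the estimates ran from -0.04 to 0.44 around a median of 0.30, with 16 of 17 genes positive. In TPM 12 were positive and the median was 0.10. At an unadjusted p under 0.05, 8 of the 17 were listed as higher (7.94% of all genes), and COPD replicates 1 to 4 exceeded all controls for 11 (4.8% of all genes). Atp5b, the catalytic beta subunit and the gene of complex V with the highest level per length, was at 2793, 2749, 2606, 3399.6 and 2681 CPM in COPD, against 2698, 2538, 3138, 2635 and 2495 CPM in control. The groups overlapped widely (log2 fold change 0.08 ± 0.12, adjusted p = 0.813 by edgeR), and the sign turned in TPM (-0.13). Atp5a1, the alpha subunit, and Atp5c1, the shaft within the head, had log2 fold changes of 0.16 ± 0.13 and 0.12 ± 0.10. Atp5d and Atp5e, the small subunits at the foot of the shaft, had log2 fold changes of 0.33 ± 0.13 and 0.38 ± 0.17.

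Among the peripheral stalk genes, Atp5j and Atp5h had log2 fold changes of 0.38 ± 0.14 and 0.37 ± 0.14, and Atp5pb and Atp5o of 0.21 ± 0.11 and 0.20 ± 0.11. Atp5j ranged from 333 to 530.2 CPM in COPD and from 312 to 398 CPM in control, and COPD replicates 1 to 4 were above all controls. Without COPD replicate 5 its adjusted p was 0.0396 by edgeR, the lowest of a range over settings that reached 0.446. In the membrane part, Atp5k, a subunit of the dimer interface, was at 173, 143, 153, 143 and 105 CPM in COPD, against 105, 95.9, 131, 115 and 85.7 CPM in control. COPD replicate 5 lay among the controls and the other 4 COPD libraries above them (log2 fold change 0.43 ± 0.15, adjusted p = 0.219 by edgeR). Its neighbours in the membrane had positive values too, from 0.28 ± 0.13 for Atp5l and 0.29 ± 0.14 for Atp5md to 0.41 ± 0.15 for Atp5j2 and 0.43 ± 0.15 for Atp5mpl.

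Atp5g1, Atp5g2 and Atp5g3 encode precursors of the same mature protein of the rotor ring and differ in their mitochondrial targeting sequences. Atp5g3 was at 446, 419, 468, 514 and 314 CPM in COPD replicates 1 to 5, against 349, 279, 362, 319 and 288 CPM in control replicates 1 to 5. COPD replicates 1 to 4 lay above all controls (log2 fold change 0.44 ± 0.14, adjusted p = 0.188 by edgeR). Without COPD replicate 5 the log2 fold change was 0.53 ± 0.11 and the adjusted p 0.0349, the lowest of a range over settings that reached 0.358. Atp5g1, the most abundant of the 3 per length (1978 ± 229 TPM in COPD and 1849.9 ± 254 TPM in control), was at 1054, 1002, 993, 1079 and 769 CPM in COPD, against 755, 740.0, 914, 944 and 634 CPM in control. Again COPD replicates 1 to 4 exceeded all controls (log2 fold change 0.30 ± 0.14, adjusted p = 0.345 by edgeR). Atp5g2 did not: it was at 366, 275, 246, 269 and 232 CPM in COPD, against 253, 267, 262, 360.4 and 284 CPM in control (log2 fold change -0.04 ± 0.14, adjusted p = 0.928 by edgeR). COPD replicate 1 and control replicate 4 stood far above the other 8 libraries for Atp5g2.

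The log2 count ratio of Atp5g1 to Atp5g2 was 1.53, 1.86, 2.01, 2.01 and 1.73 in COPD, against 1.58, 1.47, 1.80, 1.39 and 1.16 in control. COPD replicates 2, 3 and 4 lay above all controls, and the difference of 0.35 did not pass after adjustment (exact permutation test, two-sided, p = 0.0476, or 0.238 after adjustment over 6 ratios). The ratio of Atp5g1 to Atp5g3 averaged 1.19 ± 0.10 in COPD and 1.31 ± 0.19 in control (SD, n = 5 each, with an exact permutation test, two-sided, p = 0.246, or 0.492 after adjustment over 6 ratios). That of Cox6a2 to Cox6a1 averaged 6.19 ± 0.15 in COPD and 6.28 ± 0.18 in control (exact permutation test, two-sided, p = 0.421, or 0.505 after adjustment over 6 ratios). For 5 against 5 libraries the smallest p such a test can give is 0.00794.

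The subunit genes differ from most genes in transcript length, taken here as counts divided by TPM and set relative to the median tested gene. Of the 45, 41 are among the 3175 shortest tested genes and the other 4 among the next 3174. Across the 45 genes the log2 fold change was lower for longer transcripts (Spearman's rho -0.47, Pearson's r -0.45, across genes that share their libraries and are not independent). Sdha, the longest relative to the median at 0.967, also had the lowest fold change, and Cox7a1, at 0.109, the largest. The short genes Cox8a and Atp5g2, at 0.171 and 0.208, also lay below 0. Over the 965 other tested genes of at least 100 TPM, rho was -0.11. The 638 of those among the shortest 3175 had a median log2 fold change of 0.08, against 0.30 for the 41 subunit genes there. The part of transcript length in the result was not tested.

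**Figure D4:**
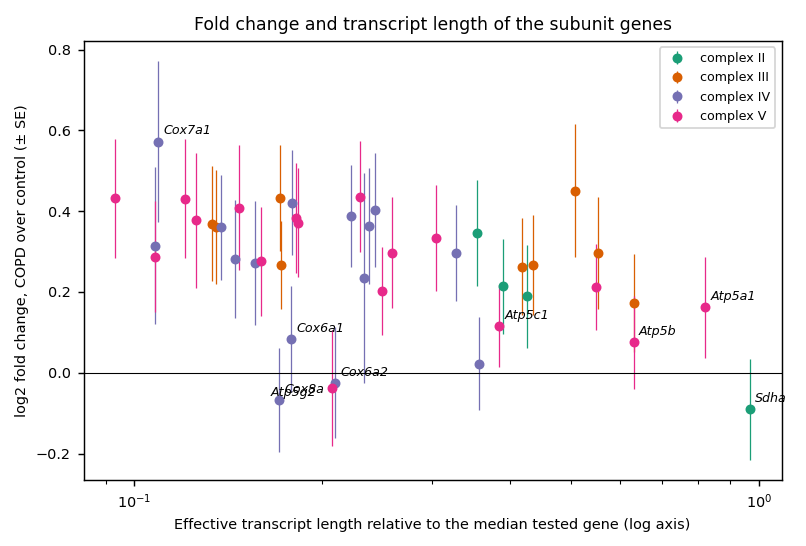
Log2 fold change (COPD over control, ± SE) of the 45 tested genes against effective transcript length relative to the median tested gene (log axis), coloured by complex. Cox7a1 is highest among the short transcripts, Sdha is the longest and lowest, and Cox8a, Cox6a2 and Atp5g2 are short transcripts below 0.

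Other genes of the respiratory chain were read from the same fit, and 0 passed edgeR's adjusted threshold in any of these lists. Over all genes tested, 48% lay above 0 and 7.94% were listed as higher at an unadjusted p under 0.05. Of 37 genes with Nduf symbols, listed for complex I (which feeds in electrons from NADH), all 37 were positive. Ndufa4 was counted there by its symbol alone. The median log2 fold change was 0.32, and 22 were listed at an unadjusted p under 0.05. Ndufc2, with the smallest p of them, had one of 0.45 ± 0.10 (adjusted p = 0.0973 by edgeR). Among 16 genes of mobile electron carriers and ubiquinone synthesis the median was 0.12, with 14 above 0 and 3 listed at an unadjusted p under 0.05. Coq7, a hydroxylase of ubiquinone synthesis, had a log2 fold change of 0.79 ± 0.15 (adjusted p = 0.0710 by edgeR) and Cycs, somatic cytochrome c, one of 0.47 ± 0.14 (adjusted p = 0.168). Assembly factors of complex IV had a median of 0.14, with 13 of 21 above 0 and 6 at an unadjusted p under 0.05, led by Pet100 (0.42 ± 0.11). Those of complexes II, III and V had a median of 0.14, with 10 of 14 above 0 and 1 at an unadjusted p under 0.05, Lyrm7, which acts on the Rieske protein (0.73 ± 0.16, adjusted p = 0.0963). Atpif1, the inhibitor of ATP synthase running in reverse, was at 0.19 ± 0.17. Without COPD replicate 5, edgeR called 8 of the 37 genes listed for complex I higher, against 2.06% of all genes. It then also called 2 of the 16 carrier and ubiquinone genes higher. Of the assembly factors it called 3 of the 21 of complex IV and 1 of the other 14 higher. None of these genes was called lower.

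All 13 genes of the tricarboxylic acid cycle were above 0 (48% of all genes), yet with a smaller median of 0.09. At an unadjusted p under 0.05, 2 were listed as higher (Mdh2 and Idh3a), against 7.94% of all genes. Cs, citrate synthase, often used as a measure of mitochondrial content, had a log2 fold change of 0.14 ± 0.14. Regulators of mitochondrial biogenesis had a median of 0.11, with 12 of 18 above 0. At an unadjusted p under 0.05, 2 of them were on the higher side and 1 on the lower (7.94% and 6.64% of all genes). Esrra, a nuclear receptor that drives respiratory genes, had a log2 fold change of 0.37 ± 0.12 (adjusted p = 0.197 by edgeR), Ppard one of 0.28 ± 0.11, Nrf1 one of -0.24 ± 0.11 and the coactivator gene Ppargc1a one of 0.42 ± 0.41 (adjusted p = 0.684 by edgeR). Hypoxia targets had a median of -0.04, with 5 of 13 above 0 and 2 higher at an unadjusted p under 0.05 (Car9 and Vegfa).

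**Figure D5:**
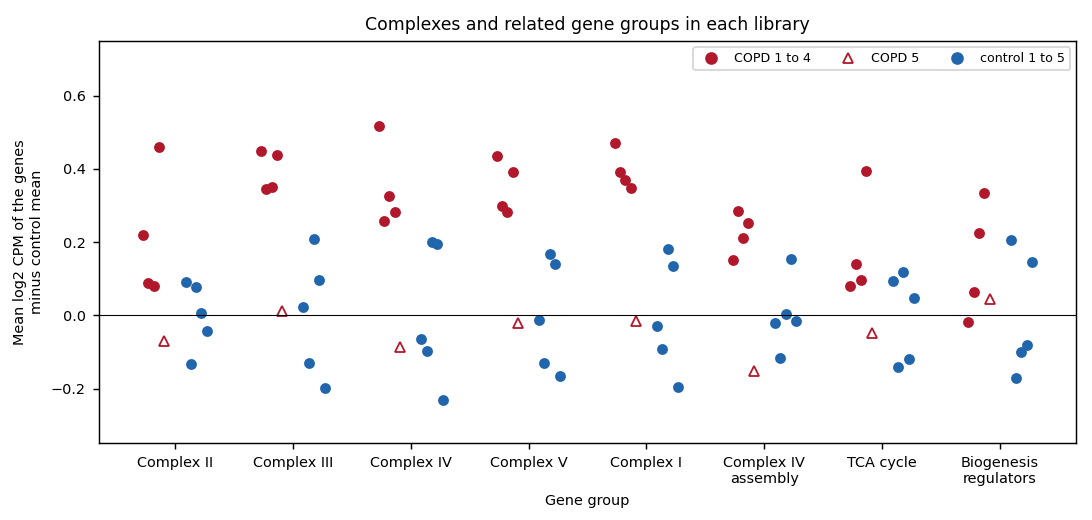
Mean log2 CPM of each gene group minus its control mean, by library (COPD 1 to 4 as filled red circles, COPD 5 as an open red triangle, controls in blue). For complexes I, III, IV and V, COPD replicates 1 to 4 lie above every control and COPD replicate 5 among the controls, while complex II, the TCA cycle and the regulators overlap more.

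Markers of fibre type and of other cells were read from the same fit, and 0 of them passed edgeR's adjusted threshold. Over all genes tested, 48% lay above 0. At an unadjusted p under 0.05, 7.94% of all genes were listed as higher and 6.64% as lower. Slow-fibre markers had a median log2 fold change of -0.99, with 1 of 10 above 0 and 2 lower at an unadjusted p under 0.05. Their summed level was 464 to 1923 TPM in COPD and 604 to 3013 TPM in control. Fast-fibre markers had a median of 0.24, with 11 of 12 above 0 and 3 higher at an unadjusted p under 0.05, and summed to 197538 to 240680 TPM in COPD and 171264 to 233226 TPM in control. The list of defining muscle markers, which shares genes with it, had a median of 0.23, with 7 of 10 above 0. Myh2 and Myh1, 2 myosin genes of the fast-fibre list, had log2 fold changes of -0.44 ± 0.52 and 0.36 ± 0.45. Macrophage markers had a median of -0.61, with 1 of 9 above 0 and 4 lower at an unadjusted p under 0.05, and summed to 43.3 to 141 TPM in COPD and 106 to 185 TPM in control. Endothelial markers (median -0.15, 1 of 7 above 0) summed to 101 to 171 TPM in COPD and 127 to 191 TPM in control. Fibroblast and tendon markers (0.76, 6 of 8, with 3 higher at an unadjusted p under 0.05) summed to 208 to 391 TPM in COPD and 329 to 352 TPM in control, adipocyte markers (0.12, 5 of 6) to 462 to 816 TPM and 532 to 676 TPM, and red cell markers (0.15, 5 of 5) to 357 to 4070 TPM and 141 to 3024 TPM. Without COPD replicate 5, edgeR called 4 subunit genes and, as given above, other genes of the respiratory chain. Of these markers it then called the macrophage gene Lyz2 (log2 fold change -1.15, adjusted p = 0.0167). It also called the fibroblast and tendon genes Thbs4 (1.30, adjusted p = 0.00826) and Col3a1 (1.29, adjusted p = 0.0399). The medians were then -0.91 for adipocyte and -0.65 for red cell markers. COPD replicate 5 had the highest mean log2 CPM of all 10 libraries in both lists, at 1.376 and 2.196 relative to the control mean. Of the listed markers in the table, 0 were at 0 in all libraries, and the lists of adipocyte, red cell and fibroblast markers had 6, 5 and 8 members past the filter. Their part in the values of the respiratory subunits was not tested.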

How the data were processed

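The authors deposited expected counts per gene, named by symbol, and TPM for the same 18025 genes in 10 samples. Per the submitters' processing notes, HISAT2 2.0.4, Bowtie2 2.2.5, RSEM 1.2.12, DESeq2 1.4.5 and build mm9 were used, with no role or order given. Expected counts are estimates, and 9 of the 46 genes had values that were not whole in at least 1 library (Uqcrc2, Atp5j and Atp5pb in all 10), as happens when reads are shared with similar sequences; these values are uncertain to that extent. No source used here states whether counting used strand. In the GENCODE M21 annotation (GRCm38), 8 of the genes have exons that overlap those of another tested gene (Atp5a1, Atp5d, Atp5j, Atp5o, Cox4i1, Cox6c, Uqcrb and Uqcrc2), so reads of both may not have been told apart.

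Groups came from the sample titles. Expected counts were rounded, filtered with edgeR's filterByExpr, scaled by TMM and tested with edgeR 4.0.16 (glmQLFit, glmQLFTest) with Benjamini-Hochberg adjustment over all 12697 genes tested, at a threshold of 0.05. The SE is the log2 fold change divided by the square root of F. For the list means by library, log2 CPM had a prior count of 2. Isoform ratios are log2 ratios of expected counts, with 0.5 added, compared by an exact permutation test of the mean difference over all 252 relabelings. Totals were 14085854 to 17251034 counts, with Cox4i2 and Cox6b2 the least covered of the genes described. All pairs of libraries differed by more than counting error (chi-square divided by its degrees of freedom, 18.2 to 125).

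A library had Y-linked transcripts where Ddx3y, Eif2s3y and Kdm5d reached 1 CPM together. Alternatives were DESeq2 1.42.0, limma 3.58.1 on TPM, voom with sample weights, other scaling and filters, a block for the replicate number, a term for Y-linked transcripts and leaving out each library. Procedures were tested on simulated data. The genes and lists were chosen with earlier results of these data known. Full values were given for genes past the threshold, the 2 of each complex with the smallest p, the 1 with the highest TPM, and the isoform sets; Sdha was added for its value. Of the respiratory, regulator and hypoxia lists, the gene or genes with the smallest p are named, with Cs and Ppargc1a added. Of the marker lists, the genes called without COPD replicate 5 are named, with Myh2 and Myh1 added. R was 4.3.3.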

Additional observations from a re-analysis of the deposited data

Results flagged for a closer look

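In each group of 5 libraries a value was marked where its gap to the nearest other value, divided by the range of the group, exceeded Dixon's 95% critical value. Of 68 groups searched, 9 passed, and chance marks about 1 in 20 groups. COPD replicate 5 was the low value in 6 of them, which are correlated genes of the same library. It had 183.86 CPM of Cox7a1 (327.29 to 356.11 in the other COPD libraries), 413.16 CPM of Cox5a (557.35 to 607.74), 429.07 CPM of Cox5b (549.29 to 590.46), 493.85 CPM of Cox4i1 (711.36 to 788.12) and 768.76 CPM of Atp5g1 (993.43 to 1078.95). Its mean log2 CPM relative to control was 0.0119 for complex III, where the other COPD libraries lay between 0.3458 and 0.4481. COPD replicate 4 was high for Atp5b, at 3399.60 CPM (2605.84 to 2792.51), and COPD replicate 1 for Cox6a1, at 42.76 CPM (28.03 to 31.82). Control replicate 4 was high for Atp5g2, at 360.39 CPM (252.93 to 283.53 in the other controls).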

How the results depend on the processing

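Over all genes tested, edgeR called 7 higher and 1 lower in COPD. The higher and lower counts were 266 and 154 by DESeq2, 86 and 51 by voom with sample weights, 165 and 51 with a term for Y-linked transcripts, and 336 and 152 over the libraries with Y-linked transcripts. They were 14 and 3 without a filter on low counts, 2 and 4 with library size alone, 7 and 3 with upper-quartile scaling, 12 and 111 by limma on log2(TPM + 1), 12 and 90 on log2(TPM + 0.1), and 0 and 2 on log2(TPM + 1) with no filter. Leaving out 1 library gave 0 to 263 higher and 0 to 147 lower, the highest of each without COPD replicate 5 and 0 of both without COPD replicate 2. Of the subunit genes, edgeR called 0 higher (22 had an unadjusted p under 0.05), DESeq2 called 2, and 0 to 4 were called without 1 library. None was called lower under any of the settings run (by limma on TPM, 1 had an unadjusted p under 0.05 and lay lower). The median log2 fold change of complex II was 0.20, and 0.0445322 with library size alone, -0.014726 by limma on log2(TPM + 1) with or without the filter and -0.0148456 on log2(TPM + 0.1). It was 0.11 with a term for Y-linked transcripts, 0.12 over the libraries that have them and 0.12 without COPD replicate 4. In the same 3 limma settings it was 0.0905086, 0.0905086 and 0.0906038 for complex III and 0.0990642, 0.0990642 and 0.0991124 for complex V. Those settings lower the median of all genes as well, and the cause of the remaining differences was not tested.

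Signs turned only for genes near 0 among those described in full. For Atp5b the log2 fold change was -0.0759494 with library size alone, -0.131446 and -0.131498 in the limma settings, -0.0126437 with a term for Y-linked transcripts and -0.00284769 over the libraries that have them. For Cox6a1 it was -0.0710422, -0.130557, -0.131841, -0.0630899 and -0.0542159 in those same settings, and -0.0371618 to 0.130924 when 1 library was left out, the lowest without COPD replicate 1. Leaving out 1 library turned Atp5g2 (-0.157708 to 0.0592769), Cox6a2 (-0.102064 to 0.0798478) and Cox8a (-0.148971 to 0.0368373). The 6 isoform ratios kept their direction and stayed short of the threshold in all alternatives run, though their sizes moved. Leaving out 1 library gave differences of 0.07 (control replicate 4) to 0.26 (control replicate 3) for Cox7a1/Cox7a2, -0.21 (COPD replicate 1) to -0.02 (COPD replicate 2) for Cox4i2/Cox4i1, -0.14 (control replicate 1) to -0.02 (control replicate 4) for Cox6a2/Cox6a1, and -0.17 (control replicate 1) to -0.06 (control replicate 4) for Atp5g1/Atp5g3. The test of same-numbered differences cannot pass, since its smallest possible p is 0.0625. For the libraries with Y-linked transcripts the smallest possible p of the exact permutation test is 0.0476. It can pass after adjustment only if all 6 ratios reach that value. These 2 tests are therefore not read as a sign of stability. Same-numbered libraries did not deviate together (correlations -0.14 to 0.04). Such correlations cannot exclude a pairing that touches few genes, and the labels name no pairing. With the replicate block edgeR called 6 genes higher and 1 lower, 0 of them subunit genes, and the subunit median was 0.30.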
